A study of Mus musculus with 4 samples.

Results

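The genes described here encode the main families of molecular chaperones: the Hsp70, Hsp90 and small heat shock proteins, the DnaJ co-chaperones, the mitochondrial chaperonin and the Cct chaperonin of the cytosol. They were picked by gene symbol from the array annotation, with the perlecan gene Hspg2 and the Hspb1-associated gene Hspbap1 left out, and 71 of the 14386 genes on named spots met that rule. The families held 13 Hsp70, 1 Hsp90, 6 small heat shock, 40 DnaJ, 2 mitochondrial chaperonin and 8 Cct genes, and Hspbp1, which encodes an Hsp70-binding protein, was kept apart. The study set CGR8 cells, a line of mouse embryonic stem cells, against embryoid bodies, the aggregates in which such cells differentiate, grown in hanging drops for 3 or 10 days. Each of 4 arrays carried total RNA of the embryoid bodies in 1 channel and of undifferentiated day 0 cells in the other, and no genetic change or added agent is named in the labels. The second array of each day is labelled a technical replicate, so each day is 1 RNA pair, every SD given here is between 2 technical arrays, and no p-value can be given. None of the labels names the channel in the numerator, and values are therefore placed on the positive and the negative side of the deposited log2 ratio, without calling a gene higher or lower. RNA from whole embryoid bodies mixes cell types, and fewer cells of a type cannot be told apart from less RNA per cell.

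Chaperones bind unfolded stretches of other proteins and help them reach or regain their folded state. Hsp70 proteins cycle between ATP and ADP forms, J-domain proteins of the DnaJ family bring them clients and stimulate ATP hydrolysis, and nucleotide exchange factors such as the Hsp110-type proteins reset the cycle. Hsp60, encoded by Hspd1, and its lid Hsp10, encoded by Hspe1, form a folding chamber in the mitochondrial matrix, and the Cct subunits form a ring in the cytosol that folds actin and tubulin. Heat shock factor binds inverted repeats of the bases GAA upstream of many of these genes, and a separate element answers to stress in the endoplasmic reticulum. Mouse embryonic stem cells are known for abundant chaperones and for expressing several heat shock genes without external stress.

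The regulatory sequences below are shown because Hspd1 and Hspe1 are divergent neighbours that lay on opposite sides at day 3, and because Hspa1a and Hspa5 are the textbook targets of the heat shock and endoplasmic reticulum stress elements. They come from RefSeq (build GRCm38.p6) and are written 5′ to 3′ on the strand named. The first spans the 215 bases between the start of Hspe1 and 1 of 2 annotated starts of Hspd1 (chr1:55087933-55088147, + strand, Hspe1 to the right). The other annotated Hspd1 start lies 95 bases past the Hspe1 start, outside the sequence shown. The second is the 250 bases before the start of Hspa1a (chr17:34972157-34972406, - strand), and the third the 200 bases before the start of Hspa5 (chr2:34771890-34772089, + strand). Capitals mark heat shock element matches in the first and second and the endoplasmic reticulum stress element in the third.
Hspd1-Hspe1: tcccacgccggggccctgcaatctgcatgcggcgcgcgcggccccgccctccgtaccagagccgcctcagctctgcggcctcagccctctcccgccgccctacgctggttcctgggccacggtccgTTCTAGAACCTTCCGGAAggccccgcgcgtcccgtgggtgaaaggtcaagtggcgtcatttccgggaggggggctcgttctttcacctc
Hspa1a: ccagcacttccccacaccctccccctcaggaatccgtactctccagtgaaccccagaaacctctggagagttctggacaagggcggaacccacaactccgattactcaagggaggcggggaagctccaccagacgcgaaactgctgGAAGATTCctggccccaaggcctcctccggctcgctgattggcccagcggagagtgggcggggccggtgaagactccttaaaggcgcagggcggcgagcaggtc
Hspa5: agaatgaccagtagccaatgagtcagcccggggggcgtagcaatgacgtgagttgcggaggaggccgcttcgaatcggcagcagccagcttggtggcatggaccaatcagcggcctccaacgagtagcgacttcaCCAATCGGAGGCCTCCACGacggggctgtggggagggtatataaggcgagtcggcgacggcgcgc

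The matches in the first sequence form 1 unbroken block that starts 89 bases before the Hspe1 start. It lies on the promoter side of Hspe1 and of the Hspd1 start that bounds that sequence. Relative to the other Hspd1 start, it lies downstream. Windows from 250 bases before to 50 after a start were on hand for 60 of the 71 genes. The letters GAANNTTC or TTCNNGAA, which overlap when units adjoin and read the same on both strands, were in the windows of 16 of these 60 genes (26.7%), against 17% of 27025 genes and 15.1% of all windows. The 3-unit form, TTCNNGAA followed by NNTTC and searched on both strands, was in 4 (Dnajb6, Hspd1, Hspe1 and Hsph1), against 0.662% of all genes. The endoplasmic reticulum stress element, CCAAT and CCACG with 9 bases between them on either strand, was in Dnajc3, Hsp90b1 and Hspa5, against 0.137% of all genes. In the 250 bases before the start, Hspa1a and its neighbouring copy Hspa1b differ at 3 positions, and the spots named Hspa1a cannot be assumed to tell their near-identical transcripts apart.

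Each array had 46128 spots, of which 37471 to 41386 carried a value. Most of the genes described here were on 2 spots of 1 sequence (64 of 71), and 7 were on 2 different sequences. Of the 71 genes, 69 had a value on both day 3 arrays and 66 on both day 10 arrays. Across these genes, which are not independent replicates, Pearson r between the technical arrays was 0.573 at day 3 and 0.469 at day 10, against 0.271 and 0.215 across all genes. Between duplicate spots of 1 array, r across these genes was 0.21 (day 3 array 1), 0.663 (day 3 array 2), -0.0637 (day 10 array 1) and 0.266 (day 10 array 2), against 0.283, 0.355, 0.226 and 0.316 across all genes, lower than all genes on 3 of the 4 arrays. Brightness was estimated from the size of the smallest pair of whole numbers that gives each deposited ratio. This is a lower bound of the signal only where the ratio was formed from whole numbers. On the 4 arrays, 58.4% to 60.4% of values had a pair with both numbers at most 10000. Recovery was tested on simulated pairs below 10000 only, so larger pairs, common among bright genes, give a rough rank and not a measured signal. By this measure 27 of the 71 genes were in the brightest 25% of all genes, and among these 27 Pearson r between technical arrays was 0.914 at day 3 and 0.701 at day 10. Of the markers of undifferentiated stem cells, 8 of 8 were on the negative side of both day 3 arrays, with a median of -0.44, and 3 of 7 on the negative side of both day 10 arrays, where Fgf4 (mean 1.25) and Utf1 (mean 0.55) were on the positive side of both. Of the early embryoid body markers, 4 of 5 were positive on both day 3 arrays, and Mesp1 was called at a mean of 1.97. Fibroblast feeder markers had medians of 0.08 and -0.18, and their part in any result was not tested.

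**Figure D1:**
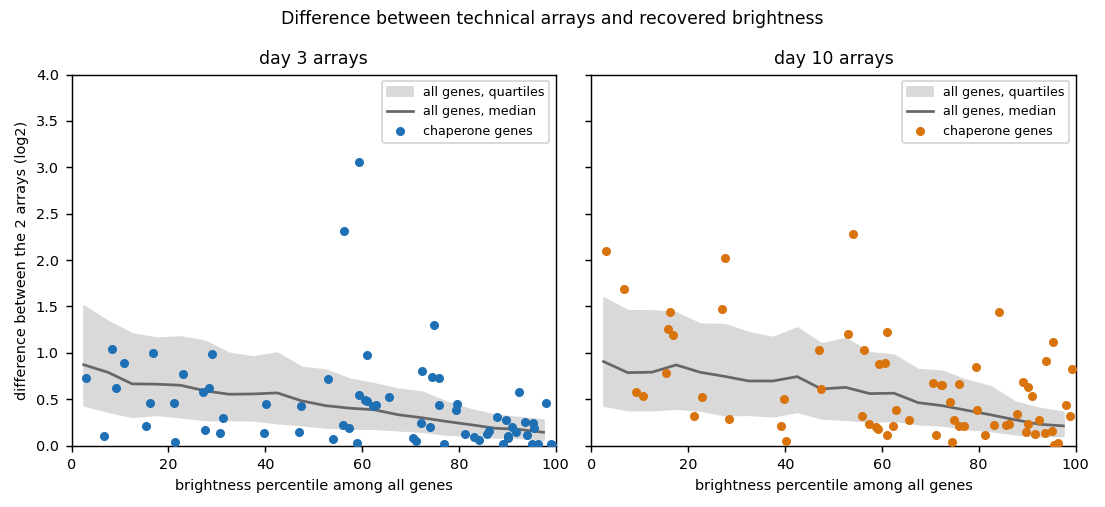
Absolute difference between the 2 technical arrays (log2, y axis) against the brightness percentile of the gene among all genes (x axis), for day 3 (left) and day 10 (right). Points are chaperone genes, the line is the median of all genes and the band their quartiles; the median difference of all genes in the brightest 25% was 0.193 at day 3 and 0.276 at day 10, against 0.719 and 0.829 in the dimmest 25%.

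The first comparison sets day 3 embryoid bodies against day 0. A gene was called where both arrays were at least 2-fold (1 on the log2 scale) to the same side after each array was centred on its median. Of 69 genes measured, 4 were called, Hspe1 and Hspa1a on the positive and Dnajc3 and Dnajb3 on the negative side, against 2.8% of all genes (1.77% positive and 1.03% negative). With every spot held to the limit, Hspe1, Hspa1a and Dnajc3 met it, against 1.42% of all genes. A 1.5-fold limit took 5 genes on the positive side, adding Hspb9, Dnajc22 and Dnajc9, and 8 on the negative, adding Hsp90b1, Dnaja4, Dnajb2, Dnajb12, Dnajc14 and Dnajc24, against 11.7% of all genes (6.33% positive and 5.33% negative). The median of the 69 means was -0.13, against 0.01 for all 13707 genes, and 32 of the 69 (46.4%) were negative on both arrays, against 31.9% of all genes. Brighter genes lay lower in general: among all genes in the brightest 25%, the median was -0.05 and 43.7% were negative on both arrays. Of the 27 genes here in that bright class, Hspa1a and Dnajc3 were called at day 3, against 4.09% of its genes.

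The mitochondrial chaperonin genes parted at day 3. Hspe1, the Hsp10 lid, read 2.02 and 2.10 on the arrays, a mean of 2.06 ± 0.05 or 4.17-fold, and its single spots read 1.88 and 2.17 on array 1 and 2.15 and 2.05 on array 2. Every spot of Hspe1 was thus beyond 2-fold on the positive side. Hspd1, the Hsp60 ring protein that shares the region printed above, read -0.58 and -1.13, a mean of -0.85 ± 0.39, and its 4 spot readings ran from -1.16 to -0.37. The values of these neighbours did not overlap on either array. Hspa9, the mitochondrial Hsp70 also called mortalin, was near the array median at -0.17 and -0.16, and the matrix J protein gene Dnaja3 read 0.34 and 0.14.

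Among the Hsp70 genes, 1 of 12 measured was called, against 2.8% of all genes, and the family median was -0.09. Hspa1a, the stress-inducible Hsp70, read 1.11 and 1.09, a mean of 1.10 ± 0.01 or 2.15-fold, and its 4 spot readings lay between 1.07 and 1.13. By the rough brightness rank described above it was among the brightest genes, at the 95.2 percentile, with every pair beyond the tested size. The other extreme of the family was Hspa1l, a testis-enriched Hsp70 gene, at -0.66 ± 0.74, with -0.13 and -1.18 on its arrays and a brightness percentile of 8.4. Hspa4, an Hsp110-type exchange factor gene, read -0.88 and -0.42, and its relative Hsph1, whose window holds the 3-unit element, read 0.06 and -0.55. Hspa8, the constitutive Hsc70, averaged -0.01 ± 0.17, but its 2 spotted sequences lay apart, as described further on.

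Genes of the endoplasmic reticulum lay on both sides. Dnajc3, a luminal J protein that also inhibits kinases of the initiation factor eIF2, read -1.32 and -1.43, a mean of -1.37 ± 0.07 or 2.59-fold, with every spot between -1.46 and -1.19. Hsp90b1, the endoplasmic reticulum Hsp90 known as Grp94 and the only Hsp90 gene taken by the symbol rule, read -0.79 and -0.78. Hspa5, the Hsp70 of that compartment known as BiP, averaged 0.54 ± 0.52 from 0.17 and 0.91. That average joins 2 sequences on opposite sides, 1 at 1.01 and 0.91 and the other at -1.51 on the only array with a value, so the side of Hspa5 at day 3 depends on the sequence read. Compartments came from a short list of genes that need not be complete. Of the 7 measured genes on the list for the endoplasmic reticulum, 3 were positive and 3 negative on both arrays. Over all genes, 33% were positive and 32% negative on both.

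The DnaJ family had a median of -0.18 over 39 measured genes, with 20 negative and 10 positive on both arrays. Over all genes, 32% were negative and 33% positive on both. Besides Dnajc3, the testis-expressed Dnajb3 was called at -1.44 and -1.01, a mean of -1.22 ± 0.30, but its single spots on array 1 read -2.79 and -0.08. Genes with close arrays on the negative side were Dnajb2 at -0.66 and -0.80, Dnajb12 at -1.10 and -0.79, Dnajc14 at -0.70 and -0.68 and Dnajc5, the cysteine string protein of synaptic vesicles, at -0.46 and -0.51. On the positive side were Dnajc22 at 0.66 and 0.67 and Dnajb5 at 0.59 and 0.47. These 6 genes, named after their values were seen, stayed short of the limit on at least 1 array. The family's extremes were not of that kind: Dnajc9, which assists histone handling, had 1.62 and 0.62, and Dnajc17 had -3.07 and -0.01, the first resting on 1 spot.

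No small heat shock gene and no Cct gene was called at day 3. Hspb9, a testis small heat shock gene, was highest of its 6 at 0.62 and 1.20, and Hspb1, which encodes the small heat shock protein of most tissues, lowest at -0.67 and -0.21. The Cct genes had a median of -0.01 over 8 subunits, from -0.43 ± 0.92 for Cct8 to 0.59 ± 0.01 for Cct4. Cct4 was the only subunit positive on both arrays, and Cct6a and Cct7 were negative on both. Tcp1, the subunit of the same ring that the symbol rule does not take, read 0.29 and -0.57.

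**Figure D2:**
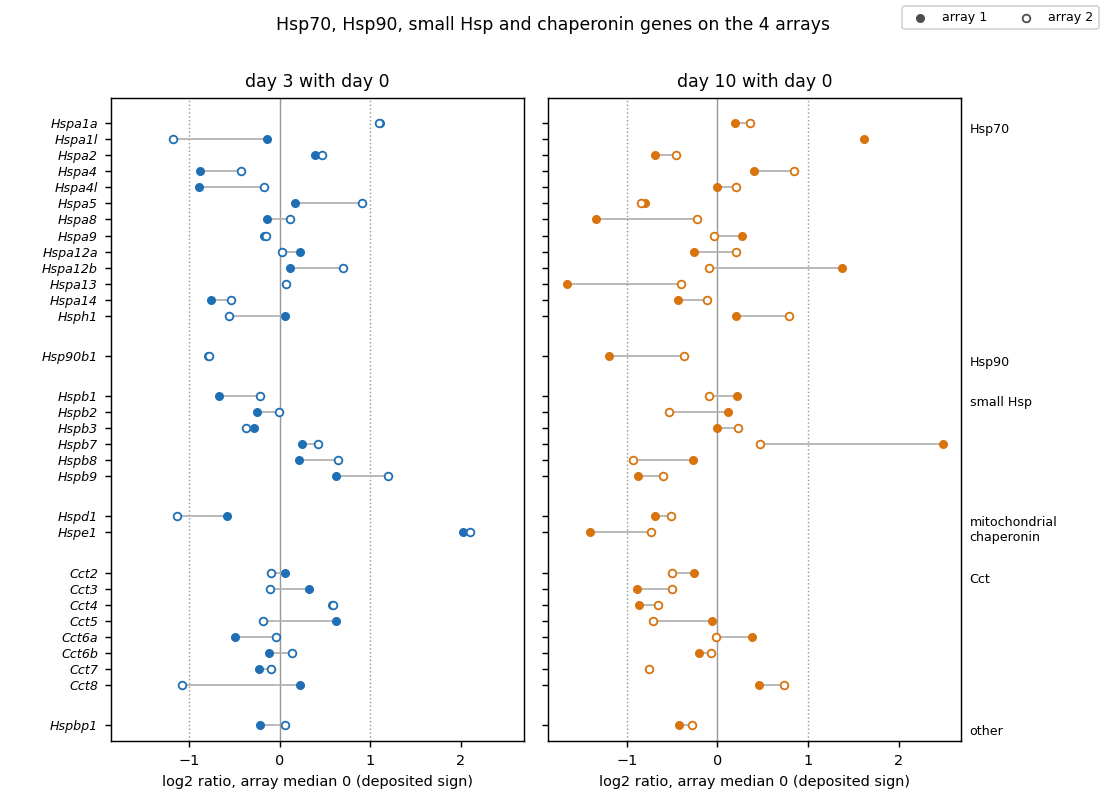
Log2 ratios (x axis, each array centred on its median, deposited sign) of the 31 genes outside the DnaJ family, grouped by family, on the day 3 (left) and day 10 (right) arrays; filled and open points are array 1 and array 2, and dotted lines mark 2-fold. Hspe1 at 2.02 and 2.10 and Hspa1a at 1.11 and 1.09 stand beyond the positive limit at day 3, and no gene here is beyond a limit on both day 10 arrays.

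The second comparison sets day 10 embryoid bodies against day 0. Of 66 genes measured, 2 were called, the J protein genes Dnajc27 and Dnajc16, both on the negative side, against 3.54% of all genes (2.15% positive and 1.39% negative). No gene met the limit with every spot, against 1.92% of all genes. A 1.5-fold limit took Dnajb5 and Dnajc28 on the positive side and 8 genes on the negative, adding Cct4, Dnajc12, Dnajc30, Hspa5, Hspb9 and Hspe1, against 14% of all genes (7.42% positive and 6.53% negative). The median was -0.20, against -0.01 for all 13199 genes, 34 of the 66 (51.5%) were negative on both arrays and 13 (19.7%) positive, against 30.8% and 30% of all genes. In the brightest 25% of all genes the median was -0.16 and 49.5% were negative on both arrays, and of the 27 genes here in that class 18 (66.7%) were. Of these 27, Dnajc27 was called, against 3.95% of that class. Both comparisons are set against day 0 cells, and the labels do not say whether the day 0 RNA was the same. A lean to the same side at both days therefore cannot be taken as a second, independent observation.

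Dnajc27, a small GTPase with a J domain, read -2.14 and -1.23, a mean of -1.68 ± 0.64 or 3.21-fold. By the rough brightness rank it was bright, at the 94 percentile. Its array 1 value was 1 spot, and on array 2 its spots read -1.48 and -0.98. Dnajc16 read -1.34 and -1.55, a mean of -1.44 ± 0.15 or 2.72-fold, but the spots were far apart, at -0.12 and -2.56 on array 1 and -0.74 and -2.36 on array 2. Neither gene therefore had every spot beyond the limit. The highest mean of the family was that of Dnajc28, 1.81 ± 1.62, from 0.66 and 2.95, each read on a different single spot.

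Among the other DnaJ genes the arrays agreed most closely for Dnaja3, at -0.10 on both. Dnajb1, the main partner of Hsp70 in the cytosol, read 0.67 and 0.47. Dnajb5 read 0.88 and 1.10, just short of the limit on 1 array. Dnajc12 read -1.16 and -0.62, and Dnajc19, part of the motor that pulls proteins into mitochondria, -2.02 and -0.58. In all, 18 of 37 measured DnaJ genes were negative and 8 positive on both arrays, against 30.8% and 30% of all genes.

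**Figure D3:**
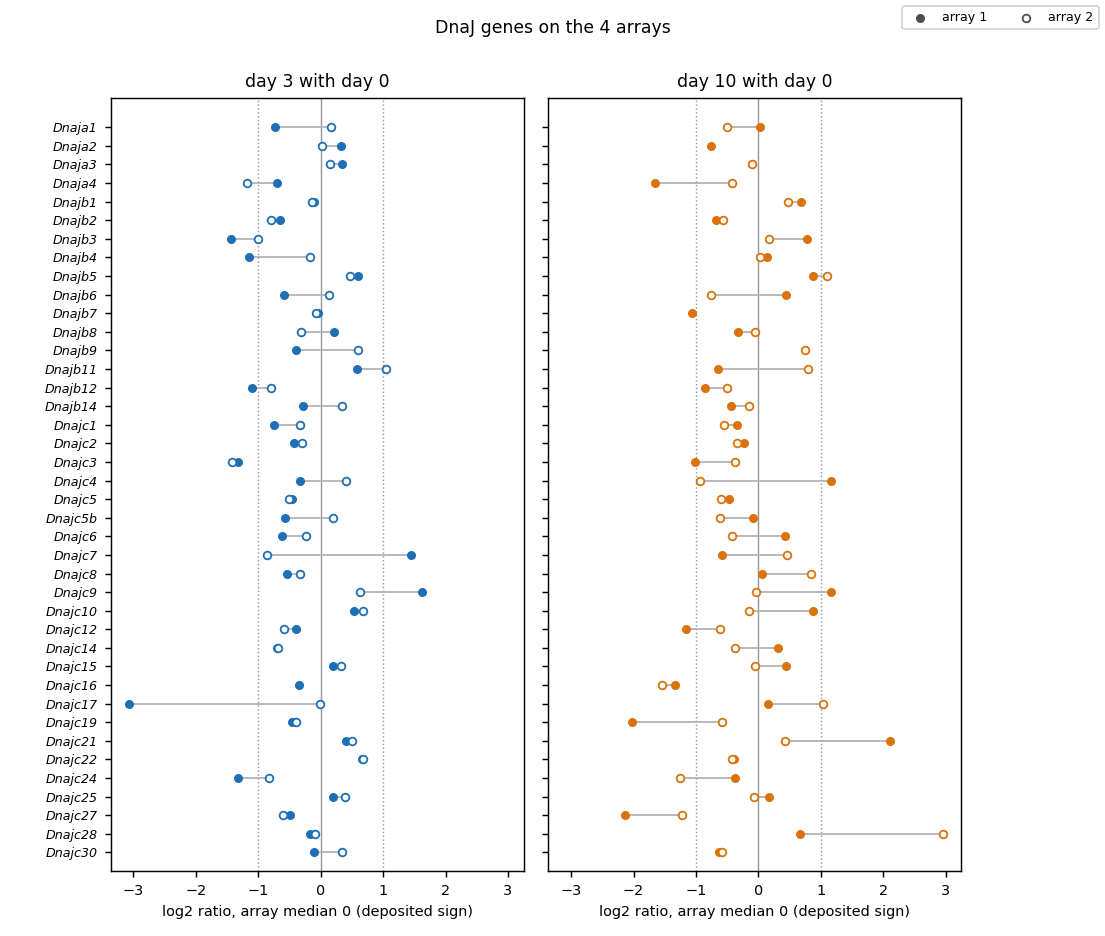
Log2 ratios (x axis, each array centred on its median, deposited sign) of the 40 DnaJ genes on the day 3 (left) and day 10 (right) arrays; filled and open points are array 1 and array 2, dotted lines mark 2-fold. At day 3 Dnajc3 and Dnajb3 and at day 10 Dnajc16 and Dnajc27 lie beyond the negative limit on both arrays, and Dnajc17 and Dnajc28 have their arrays far apart.

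No Hsp70, Hsp90, small heat shock, Cct or mitochondrial chaperonin gene was called at day 10. Hspa1a read 0.20 and 0.36, a mean of 0.28 ± 0.11, with every spot between 0.14 and 0.44. Hspa4 read 0.40 and 0.84 and Hsph1 0.21 and 0.79. Hspa4l, the third Hsp110-type gene, read -0.01 and 0.20. Hspa4 and Hsph1 were thus positive on both arrays and Hspa4l was not, and Hsph1 was dim, at the 9.27 percentile. Hspa9 stayed near the array median at 0.27 and -0.04. Hspa12b, a distant Hsp70 relative of endothelial cells, was highest at 0.64 ± 1.04, from 1.38 and -0.09 on a single spot. Hspa13 was lowest at -1.03 ± 0.89, from -1.66 on a single spot of array 1 and -0.41 on array 2. Its array 2 spots read -1.99 and 1.17.

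Of the genes listed for the endoplasmic reticulum and for mitochondria, 5 of 7 measured in each list were negative on both day 10 arrays. None was positive on both. Over all genes, 30.8% were negative and 30% positive on both, and in the brightest 25% these were 49.5% and 25.4%. Dnajb9, an endoplasmic reticulum J protein gene, had a value on 1 day 10 array only, 0.74, and is not among the 7. Hsp90b1 read -1.20 and -0.37, Hspa5 -0.80 and -0.84 and Dnajc3 -1.01 and -0.38. These 3 genes hold the endoplasmic reticulum stress element in their windows and were all below the array median on each day 10 array. The gene averages of Dnajc1 (-0.35 and -0.56) and Hspa13 (-1.66 and -0.41), for which no match was found, were below it too. However, 1 of the 2 Dnajc1 sequences read 0.74 and 0.14, and the Hspa13 spots on array 2 read -1.99 and 1.17. At day 3 the gene averages of Hsp90b1 and Dnajc3 were negative and that of Hspa5 positive. Any link to the element was not tested. Hspd1 read -0.69 and -0.52, a mean of -0.60 ± 0.12, but its spots on array 1 read -1.71 and 0.32. With only the spot of closest arrays kept, the day 10 mean of Hspd1 was -0.02. Hspe1 averaged -1.07 ± 0.48 from -1.41 and -0.73, but its spots read 1.19 and -4.00 on array 1, and on array 2 a single spot read -0.73. The spot at -4.00 had a deposited ratio of 130 to 2103 in smallest whole numbers, against 11303 to 5018 for its duplicate, so the day 10 value of Hspe1 rests on spots that were far apart.

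Cct genes had a median of -0.38 over 7 measured subunits, and 5 of the 7 were negative on both arrays. The share negative on both was 30.8% over all genes and 49.5% in the brightest 25%. Cct2 read -0.26 and -0.50, Cct3 -0.88 and -0.50 and Cct4 -0.87 and -0.66. The Cct3 values average 2 sequences on opposite sides, 1 at -1.82 and -0.89 and the other at 0.06 and 0.27. Cct8 alone was positive on both arrays, at 0.46 and 0.73. Hspbp1, an exchange factor gene of Hsp70, read -0.43 and -0.28, after -0.22 and 0.06 at day 3. Hspb7, a small heat shock gene of heart muscle, had the highest mean of its family, 1.48 ± 1.43, but on array 1 its spots read -0.37 and 5.34. Hspb1 was near the array median at 0.22 and -0.10, and Hspb9 lowest at -0.87 and -0.60. The cardiac muscle markers had a median of -0.22, and none of 4 was called.

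The third comparison takes the difference between the days, day 10 minus day 3, through the day 0 RNA, which is taken as common to all arrays and as being in the same channel at both days; the labels state neither. A call needed each of the 4 possible array pairs, 1 from each day, to differ at least 2-fold to the same side. This held for 5 of 64 measured genes, against 3.54% of all genes (1.82% positive and 1.72% negative): Hspe1, Hspb9, Cct4 and Dnajc22 on the negative side and Dnajb3 on the positive. The SD of a difference combines those of both days. The bright class held Hspb9, Cct4 and Dnajc22, against 4.1% of its genes. A 1.5-fold limit added Hspa1a, Hspa2, Hspa5 and Dnajc27 on the negative side and Hspa4 and Dnajc28 on the positive, against 10.3% of all genes (5.28% negative and 5.01% positive). The median difference was -0.03, against -0.01 for all genes. With the sign of the day 10 arrays turned, 11 genes were called, none of them among these 5, and 9.18% of all genes.

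Hspb9 differed by -1.64 ± 0.45, from 0.62 and 1.20 at day 3 to -0.87 and -0.60 at day 10, and it alone met the limit for every pair of spots, against 1.22% of all genes. Dnajc22 differed by -1.08 ± 0.02, with the 4 differences between -1.10 and -1.06. Cct4 differed by -1.35 ± 0.15, with the differences between -1.46 and -1.24, as an average over 2 sequences that lay apart. In these 3 genes the arrays of the days lay on opposite sides of the array median. Hspe1 differed by -3.13 ± 0.48, the largest difference of the 64 in size, but 1 of its day 10 spots, at 1.19, was on the same side as day 3. Dnajb3 differed by 1.70 ± 0.53, with a spot at -0.08 at day 3 on array 1. With only the spot of closest arrays kept for each gene, Cct4 at -0.14 and Dnajb3 at 0.91 were no longer called between the days, and Dnajb3 was no longer called at day 3, at -0.44.

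Several genes of known function came close. Hspa2, an Hsp70 gene enriched in testis, had differences from -1.16 to -0.85, and Hspa1a from -0.92 to -0.74. Hspa4 differed by 1.27 with a range from 0.83 to 1.72, and Hspa5 by -1.36 with a range from -1.75 to -0.97. The gene averages of Hspa4 and Hspa5, both Hsp70 relatives, thus differed to opposite sides. For Hspa5, 1 of its 2 sequences read 1.01 and 0.91 at day 3 and -0.42 and -0.40 at day 10. The other was negative at both days, at -1.51 on the only day 3 array with a value and -1.19 and -1.73 at day 10. Over all measured genes, 15 of 64 (23.4%) had their day 3 and day 10 arrays wholly on opposite sides of the array median, against 14% of all genes.

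**Figure D4:**
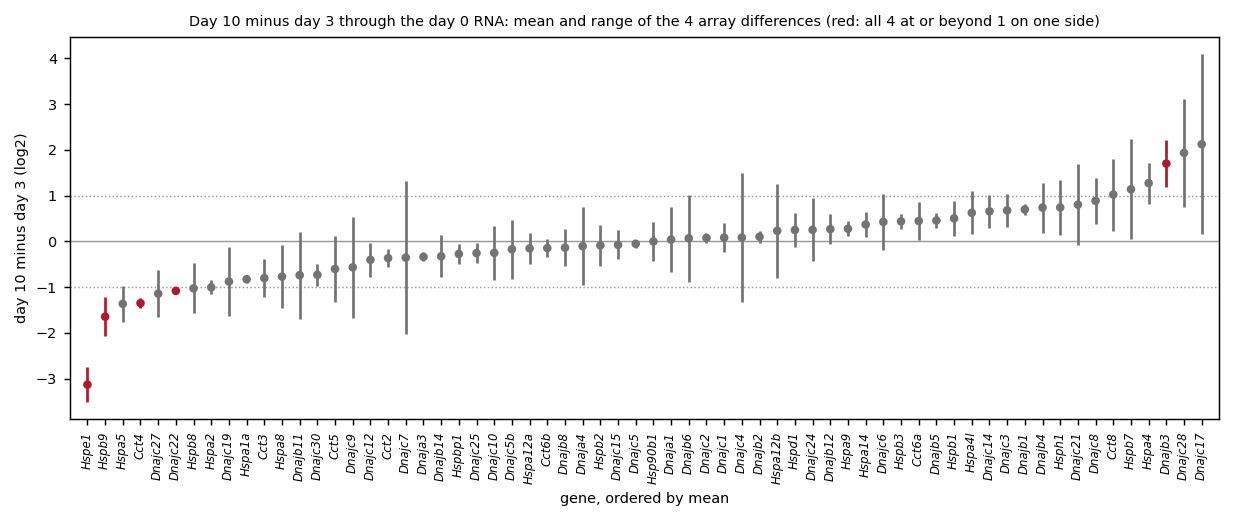
Day 10 minus day 3 (log2, y axis) for the 64 genes measured on every array, ordered by the mean; bars span the 4 array pairs, and red marks genes with every pair at or beyond 1 on 1 side. Hspe1, Hspb9, Cct4 and Dnajc22 are red on the negative side and Dnajb3 on the positive, while Dnajc17 and Dnajc28 have the highest means with ranges that reach below 1.

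Where a gene was spotted as 2 different sequences, averaging hid differences between them. Both sequences had values on both arrays for 6 genes at each day, and in 5 of the 6 the arrays of the sequences did not overlap at day 3 and in 5 of 6 at day 10. The median gap between the sequences of a gene was 1.15 at day 3 and 1.25 at day 10. The exceptions were Dnajb4 at day 3 and Dnajc2 at day 10. The same count and gap were not computed over all genes spotted as 2 sequences. They therefore cannot be read as particular to the genes described here. Duplicate spots of the same sequence also differed. Depending on the array, they lay on opposite sides in 19.4% to 29.3% of sequences of the genes described here. Over all genes this share was 30.9% to 35.5%.

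Dnajc1, a J protein gene of the endoplasmic reticulum membrane, was the clearest case. Its sequence NM_007869 read -1.49 and -1.26 at day 3 and -1.44 and -1.26 at day 10, with all 8 spot readings between -1.51 and -1.21. Its sequence AK014639 averaged 0.73 and 0.61 at day 3 and 0.74 and 0.14 at day 10, with single spots from -1.27 to 1.54. The gene average of -0.54 ± 0.30 at day 3 described neither sequence. For Hspa5, NM_022310 read 1.01 and 0.91 at day 3 and -0.42 and -0.40 at day 10, while U16277 read -1.51 on the only day 3 array with a value and -1.19 and -1.73 at day 10. For Cct4, NM_009837 was beyond the limit at day 3 at 1.07 and 1.22, and AK011873 was at 0.09 and -0.03.

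The sequences of Hspa8 lay apart on both day 3 arrays and on day 10 array 1. Its sequence M13967 read 0.34 and 0.43 at day 3 and -2.42 on day 10 array 1, with no value on array 2, whereas M19141 read -0.61 and -0.21 at day 3 and -0.26 and -0.22 at day 10. The day 10 average of -0.78 ± 0.79 for Hspa8 thus had different sequences behind its arrays. Counting each sequence on its own gave 7 called of 75 at day 3 and 4 of 72 at day 10, against 2.91% and 3.97% of all sequences, and 8 of 69 between the days, against 3.72%. The added ones at day 3 were 1 sequence each of Cct4, Dnajc1 and Dnajc2, and at day 10 those of Dnajc1 and Hspa5 on the negative side. Between the days they were 1 sequence each of Cct3, Dnajc2 and Hspa5. These counts were added after seeing the data. Hspa8 has processed pseudogenes, and which transcripts each spot can bind was not tested.

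**Figure D5:**
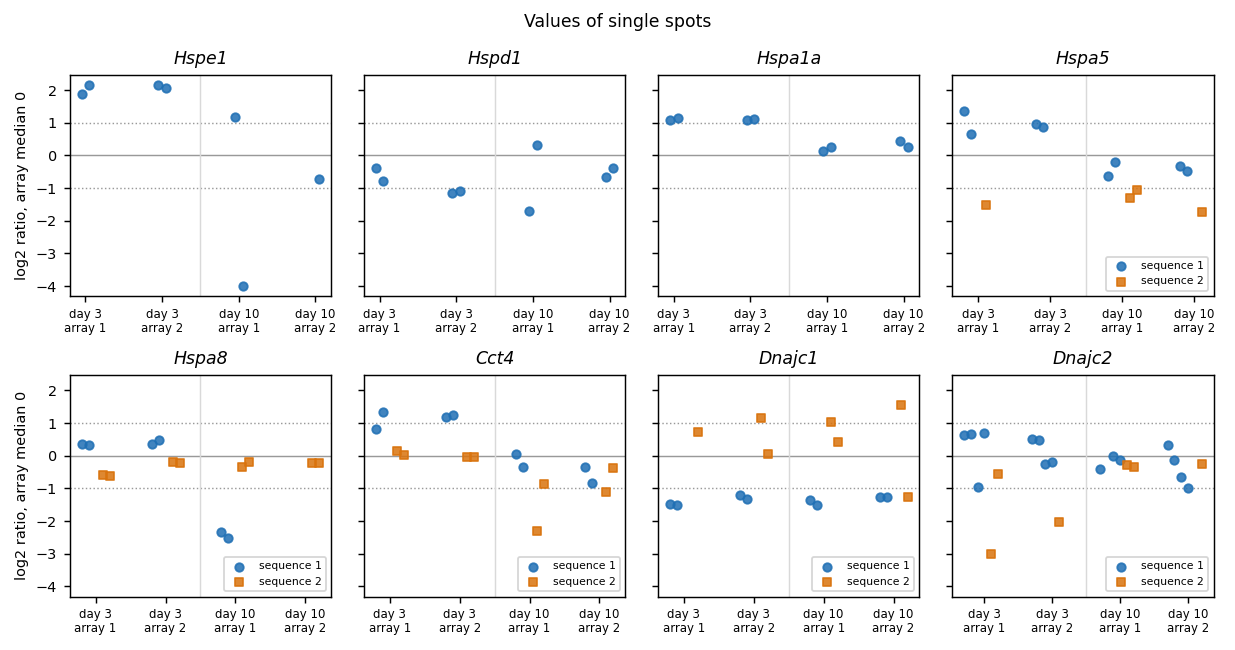
Single-spot log2 ratios (y axis, each array centred on its median) of 8 genes on the 4 arrays (x axis); circles and squares are spots of the first and second spotted sequence, dotted lines mark 2-fold. The spots of Hspa1a lie close together, those of Hspe1 at day 10 are spread from -4.00 to 1.19, and the sequences of Dnajc1, with NM_007869 between -1.51 and -1.21, lie apart but for 1 AK014639 spot at -1.27 on day 10 array 2.

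The other genes of the folding network, 44 co-chaperones, exchange factors, heat shock factors, prefoldins, folding enzymes and mitochondrial proteases with a named spot, were compared in the same way. None of 42 measured was called at day 3 on either side, against 2.8% of all genes. At day 10, 1 of 43 was called on the positive side, Trap1, the mitochondrial Hsp90, and 1 on the negative side, Sgta, a co-chaperone that handles tail-anchored proteins, against 3.54%. Trap1 read -0.28 and 0.13 at day 3 and 2.47 and 2.90 at day 10, and its 4 day 10 spots lay between 2.25 and 2.96. Sgta read -1.17 and -1.59 at day 10, with every spot beyond the limit. Between the days 2 of 41 were called, both on the positive side, against 3.54% of all genes (1.82% positive and 1.72% negative). Trap1 differed by 2.76 ± 0.42 and the exchange factor gene Bag4 by 1.41 ± 0.48.

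A few others of this list had values near the limit. Unc45a, a chaperone of myosin, read -1.10 and -0.94 at day 3 and -1.50 and -0.93 at day 10. Sil1, an exchange factor of BiP, read -0.85 and -0.66 at day 3 and -0.70 and -0.82 at day 10. Stip1, which links Hsp70 to Hsp90, read -0.37 and 0.18 at day 3 and -1.28 and -0.86 at day 10. These 3 genes were named after their values were seen.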

How the data were processed

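Total RNA of day 3 or day 10 embryoid bodies was hybridised with day 0 RNA on 2-channel arrays, 2 technical arrays per day. The authors deposited 1 value per spot and array, a log ratio of its channels whose base, log2, was settled from the values. How spots were scanned, background-corrected and dye-normalized, and which dye each RNA carried, was not given in the sources used here. Deposited medians lay between -0.04 and -0.01. Gene symbols came from the platform annotation and were checked by gene ID against RefSeq's GRCm38.p6 table (0 changed); 32544 had 1 symbol, 588 several and 12996 none. After 480 control spots were left out, arrays were centred on their medians and spots averaged per gene. The number of arrays limits the precision.

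Named genes were all called members, the extremes of each family at each day and a list of well known members, plus called genes of the related list; any other gene in the text was named after its values were seen. Members and lists were chosen with earlier results of these data known. Alternatives were no centring, other limits, other ways to combine spots, genes with values on all arrays, bright genes, each array left out, the day 10 sign turned and, added after seeing the data, every spot and each sequence. The steps were tested on simulated data. Python 3.11.15, numpy 2.4.6, pandas 2.3.3 and matplotlib 3.10.9 were used.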

Additional observations from a re-analysis of the deposited data

Results flagged for a closer look

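Of 22 named genes with values on every array, 8 had day 3 and day 10 arrays wholly on opposite sides of the array median. This held for 23.4% of all 64 genes described here with such values and for 14% of all genes. Named genes were chosen partly by these same values, so their count cannot be read against those shares. The difference between the days was not tested in any of the 8, since each day is 1 RNA pair. Day 10 minus day 3 was -3.13 for Hspe1, -1.64 for Hspb9, -1.36 for Hspa5, -1.35 for Cct4 and -1.08 for Dnajc22, and 2.13 for Dnajc17, 1.94 for Dnajc28 and 1.70 for Dnajb3. The values of Hspe1, Dnajb3, Dnajc17 and Dnajc28 rest on spots that were far apart or on single spots, and those of Hspa5 and Cct4 average sequences that lay apart. With only the spot of closest arrays kept, the difference was -0.14 for Cct4 and 0.91 for Dnajb3.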

How the results depend on the processing

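No paired analysis was possible because the labels give the arrays no shared replicate number and the second array of each day repeats 1 RNA pair. Counts of called genes (4 at day 3, 2 at day 10, 5 between the days) were the same without centring. They were 13, 10 and 11 with a 1.5-fold limit (11.7%, 14% and 10.3% of all genes), 1, 0 and 1 with a 4-fold limit (0.175%, 0.22% and 0.356%) and 7, 9 and 14 with the limit on the mean alone (7.97%, 10.6% and 16.2%). In the brightest 25% of genes they were 2, 1 and 3 (4.09%, 3.95% and 4.1% of that class). Keeping each gene's spot with the closest arrays called 6 at day 3, without Dnajb3, 5 at day 10 and 5 between the days, without Cct4 and Dnajb3 (4.57%, 5.9% and 6.57% of all genes). Requiring values on all 4 arrays called 1 at day 10 (3.51%). With each array left out, which leaves the limit on fewer arrays, counts ran from 10 to 10 at day 3, from 6 to 17 at day 10 and from 7 to 13 between the days (12.8% to 14.4%, 16.2% to 20.4% and 10% to 15.4% of all genes). With the sign of day 10 turned, 11 were called (9.18%). With every spot at the limit, 0 remained at day 10 (1.92% of all genes) and 1 between the days (1.22%). At day 3 the 3 were Dnajc3, Hspa1a and Hspe1 (1.42%). Counting each sequence gave 7, 4 and 8 (2.91%, 3.97% and 3.72% of all sequences). The median over the genes ran from -0.27 to -0.02 at day 3, from -0.38 to -0.18 at day 10, and from -0.14 to 0.10 between the days, where its sign turned without day3 replicate 2 (0.01) and without day10 replicate 2. Values of single genes were recomputed without centring, with the spot median, with the closest spot and with each array left out, and no called value changed sign there; they were not recomputed with the day 10 sign turned. Dim genes had larger differences between arrays, which limits what can be read for the 12 genes in the dimmest 25%.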
